A study of Rattus norvegicus with 10 samples.

Results

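Indomethacin and diclofenac were compared in the gastric mucosa of Sprague Dawley rats through the 2 libraries of each drug, 4 of the 10 libraries of the study. These 4 were chosen by their labels alone. Indomethacin was given by mouth at 48 mg/kg and diclofenac by mouth at 75 mg/kg, and tissue was taken after 4 h. The other 3 groups, each of 2 libraries, were controls whose labels name no treatment, aspirin at 400 mg/kg for 4 h, and indomethacin at the same dose preceded by 30 min with an intraperitoneal injection of honokiol (40 mg/kg), a plant lignan. The time label of that last group gives only the lead of honokiol, so its sampling at 4 h rests on the general protocol. Epithelial cells are named in the labels. Because the doses of the drugs differ, drug and dose cannot be told apart in any difference given here.

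Both drugs are arylacetic acids and non-steroidal anti-inflammatory drugs. Indomethacin carries its acetic acid on an indole ring that bears a chlorobenzoyl group, and diclofenac carries its acetic acid on a phenyl ring joined through an amine to a dichlorophenyl ring. Both inhibit the cyclooxygenases, enzymes that make prostaglandins from arachidonic acid. In the stomach, prostaglandins maintain mucus and bicarbonate secretion and mucosal blood flow, and loss of these is part of the gastric injury for which this drug class is known.

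The deposited tables identify features by Ensembl gene identifier and coordinates without gene names, and the symbol table of the reference held 0 of the 32623 identifiers. Features are therefore described by chromosome, start, end, exon number and length as the tables give them. No genome build is stated for them in the labels or table headers. For the same reason the cyclooxygenase genes themselves and the markers of mucosal and other cell types could not be looked up, and the labelled cell type was not checked against its markers. An exon number counts the distinct exons listed for a feature. In bulk tissue, fewer cells of a type and less RNA per cell cannot be told apart.

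The indomethacin libraries held 43608370 and 34659858 counts and the diclofenac libraries 44977459 and 41775068, within a range of 23892226 to 44977459 over all libraries. Within each drug the libraries correlated at r = 0.973 for indomethacin and 0.967 for diclofenac across features in log2 CPM (counts scaled to a common library total), and they differed by far more than counting noise, with a chi-square per degree of freedom of 136 and 389. Separate animals are not stated for the libraries of a group. Every p-value here rests on the spread between libraries, which may in part be technical. Counts on 7 Y-chromosome features were 4438 and 2 in the indomethacin libraries and 47 and 0 in the diclofenac libraries. They were 3582 and 1 in control, 3393 and 2733 in honokiol with indomethacin, and 0 and 0 in aspirin. The libraries of indomethacin, and those of control, thus differ as repeats of a single sample would not. Y reads were also few or absent in aspirin and diclofenac, so sex and drug cannot be fully told apart. Mitochondrial features took 32.4% and 21.7% of the indomethacin counts and 21.4% and 21.1% of the diclofenac counts. The 3 loci on chromosomes 1 and 14 that dominated some libraries took 12.1% of the first diclofenac library, 0.652% of the second, and 1.02% and 1.42% of the indomethacin libraries. The aspirin and diclofenac tables end in 2 empty lines and all others in 1, so handling that went with those drugs cannot be told apart from the drugs.

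After indomethacin, 3 features stood higher than after diclofenac, on chromosomes 2, 3 and 7, by 6.05-fold, 6.88-fold and 25.8-fold. These 3 were all that passed among 16346 features tested (0.0184%) with edgeR's quasi-likelihood test at a Benjamini-Hochberg adjusted p under 0.05. No feature passed as lower after indomethacin with edgeR, although 830 features (5.08%) were lower at an unadjusted p under 0.05 and DESeq2 called 56 lower (0.343%). At an unadjusted p under 0.05, 1119 features (6.85%) were higher. DESeq2 called 109 higher (0.667%), and the 3 edgeR calls were among its calls. Without the first diclofenac library edgeR called 0 features, with 504 higher and 484 lower at an unadjusted p under 0.05, and without the second it called 15 higher and 48 lower.

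The precision of the comparison was limited by the 2 libraries in each group. The standard error of a log2 difference had a median of 0.284 over the tested features, and the median difference itself was 0.0063. For 8562 features (52.4%) the 95% interval of the difference lay within 1 log2 unit of 0 on both sides, so that a change of more than 2-fold in either direction lay outside the interval. The difference was larger than 1 log2 unit in 1322 features (8.09%).

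**Figure D1:**
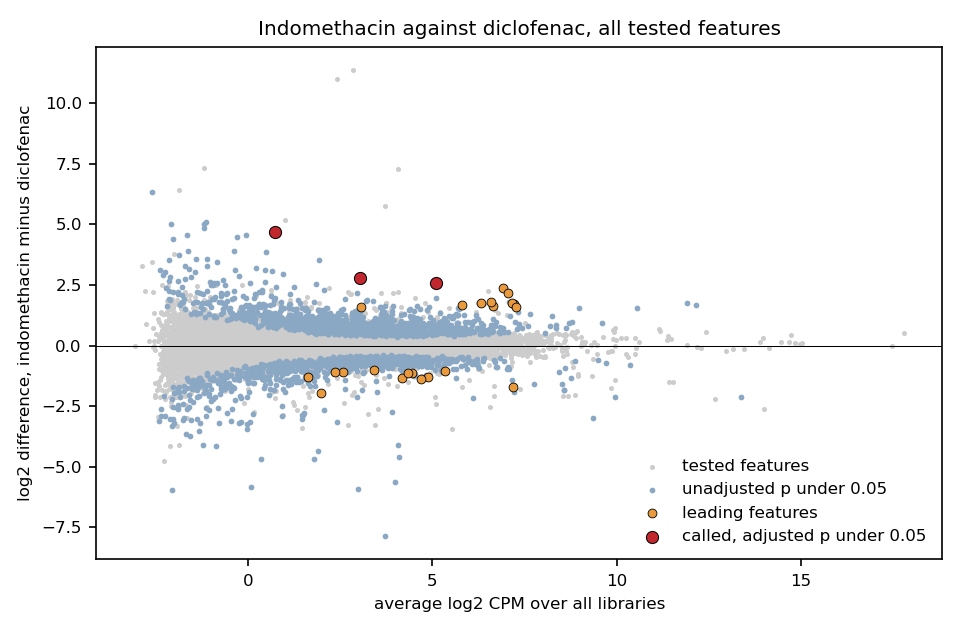
Log2 difference between the indomethacin and the diclofenac libraries (vertical axis) against the average log2 CPM over all libraries (horizontal axis), with 1 point for each of the 16346 tested features. Red points are the 3 called features, all above 0, orange points are other leading features of either direction, and blue points had an unadjusted p under 0.05.

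The feature with the smallest p lies on the plus strand of chromosome 3 from 75024206 to 75024479, has 1 exon of 274 nt and has the identifier ENSRNOG00000052180. Its levels were 13.7 and 10.04 CPM after indomethacin and 1.72 and 1.71 CPM after diclofenac. The controls stood at 16.1 and 13.0 CPM, honokiol with indomethacin at 9.49 and 11.6 CPM, and aspirin at 2.39 and 1.80 CPM. The libraries of controls and of both indomethacin groups were thus all above those of aspirin and diclofenac, without overlap. The log2 difference between indomethacin and diclofenac was 2.78 ± 0.25 (SE, n = 2 libraries each), with a 95% interval from 2.23 to 3.33 and an edgeR adjusted p of 0.0026. The other 2 tested features of that megabase did not pass, with log2 differences of 0.16 ± 0.29 and 0.40 ± 0.32.

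The called feature of chromosome 2, identifier ENSRNOG00000032959, spans 243502073 to 243516532 on the plus strand and has 9 exons with 2023 nt in all. It was measured at 59.99 and 49.99 CPM after indomethacin and at 10.4 and 7.74 CPM after diclofenac. Control libraries held 62.8 and 39.1 CPM, honokiol with indomethacin 49.1 and 41.7 CPM, and aspirin 12.6 and 8.85 CPM. The indomethacin levels lay within the range of the controls, and the diclofenac levels overlapped those of aspirin. The log2 difference was 2.60 ± 0.28 (SE, n = 2 each), with a 95% interval from 1.97 to 3.22 and an edgeR adjusted p of 0.010. The call was lost without the first indomethacin library (adjusted p 0.075) and without the first diclofenac library (adjusted p 0.052), and the chromosome 3 call was lost without the latter alone (adjusted p 0.052).

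The third called feature followed another pattern over the groups. It lies on the plus strand of chromosome 7 from 14529482 to 14574361 and has 24 exons with 3890 nt. Indomethacin libraries held 6.11 and 4.29 CPM, from 219 and 167 counts, while diclofenac libraries held 0.159 and 0.238 CPM, from 7 and 10 counts. The controls were as low as diclofenac, at 0.379 and 0.234 CPM, and aspirin was at 0.331 and 0.0473 CPM. Honokiol with indomethacin gave 2.56 and 1.46 CPM, between the other indomethacin libraries and all the rest. Here the log2 difference was 4.69 ± 0.59 (SE, n = 2 each), with a 95% interval from 3.39 to 5.99 and an edgeR adjusted p of 0.029. The call was lost in 8 of 24 alternative fits, among them those without the first indomethacin or the first diclofenac library and the fit with a term for Y reads, with adjusted p values reaching 0.20.

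**Figure D2:**
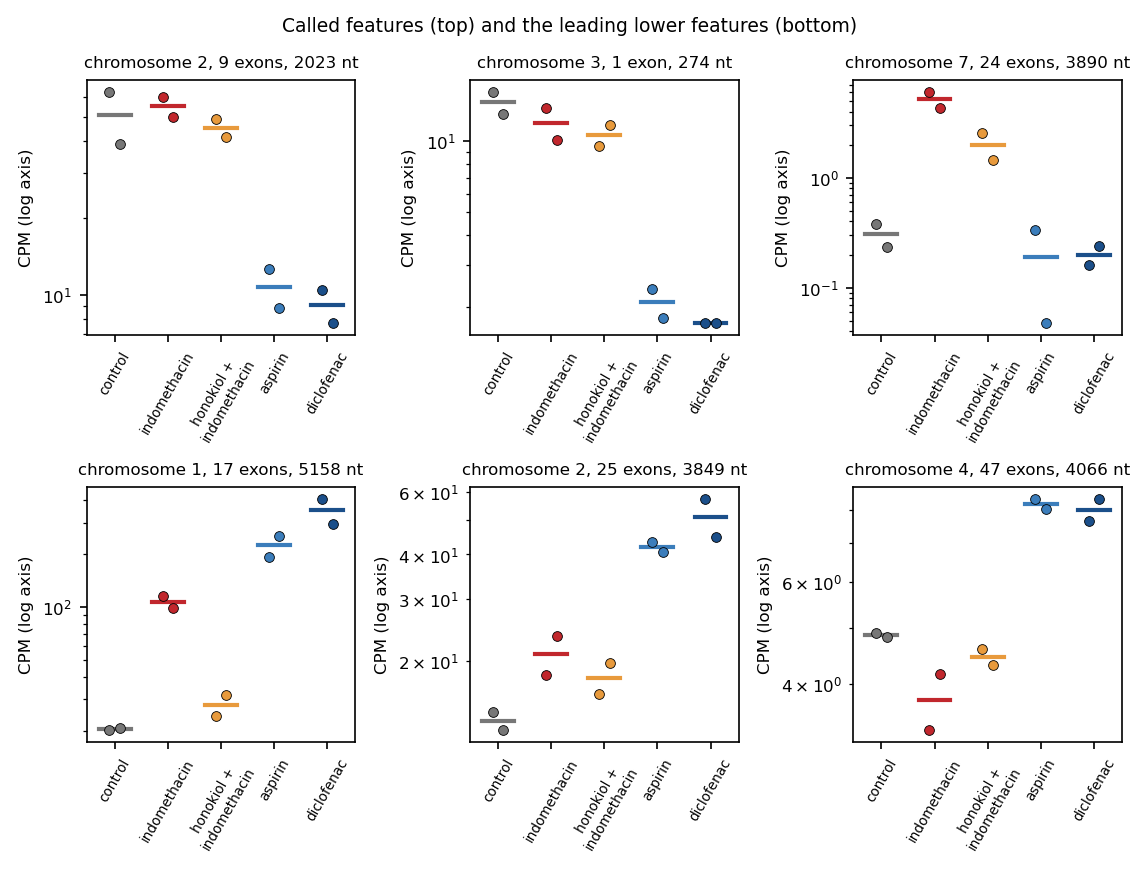
Levels in CPM on log axes that do not start at 0, with 1 point for each library and a bar at the mean of the 2 libraries of each group. The top row shows the called features of chromosomes 2, 3 and 7. The bottom row shows the lower features with the smallest p, on chromosomes 1, 2 and 4. In these, aspirin and diclofenac both lie above control and indomethacin.

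The chromosome 7 feature sits in a megabase, from 14 to 15 Mb, where 6 of 13 tested features were higher after indomethacin at an unadjusted p under 0.05 (46.2%, against 6.85% of all features) and 0 were lower. The count was 4 without the first diclofenac library. This region was singled out because it holds the call. A feature from 14589520 to 14614869 with 15 exons was at 1.65 and 1.23 CPM after indomethacin, 0.113 and 0.143 CPM after diclofenac, and 0.347 and 0.301 CPM in control (log2 difference 3.46 ± 0.55, edgeR adjusted p 0.070). Another, from 14821691 to 14828517 with 6 exons, had 52 and 39 counts after indomethacin, 2 and 1 after diclofenac and 0 in both controls (log2 difference 5.0 ± 0.82, edgeR adjusted p 0.072). Both were low in every library without indomethacin. Honokiol with indomethacin had 0.550 and 0.412 CPM in the first and 24 and 10 counts in the second, below indomethacin alone. A feature from 14528822 to 14545751 overlaps the called one on the same strand, so that reads may be shared, and it differed less (log2 difference 1.19 ± 0.51, edgeR adjusted p 0.40). The feature from 14044586 to 14054639, on the minus strand with 16 exons, had 11.96 and 12.28 CPM after indomethacin, 3.67 and 4.33 CPM after diclofenac and 9.47 and 6.78 CPM in control (log2 difference 1.60 ± 0.23, edgeR adjusted p 0.060). Over the 13 features 7 log2 differences were above 0 and the median was 0.34, which was 0.11 without the second indomethacin library.

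To show what lay just outside the threshold, the 12 features with the smallest p in each direction were taken among those whose average log2 CPM was 1 or more and that showed no overlap between the drugs. Of all tested features, 25.1% had both indomethacin libraries above both diclofenac libraries and 23.5% had both below. The 12 leading higher features include the calls of chromosomes 2 and 3, and the others had edgeR adjusted p values from 0.060 to 0.072. All 24 leading features were called by DESeq2, which called 0.667% of all tested features higher and 0.343% lower. The choice used p values of this contrast from the same libraries. These DESeq2 calls and the values that follow are therefore a description.

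Among the leading higher features, 7 came from a single megabase of chromosome 9, between 4072823 and 4978892. The feature from 4072823 to 4114974, with 15 exons, had 215 and 201 CPM after indomethacin and 50.6 and 76.0 CPM after diclofenac, against 239 and 200 CPM in control and 63.4 and 72.2 CPM after aspirin (log2 difference 1.72 ± 0.25, edgeR adjusted p 0.060). The feature with the smallest p there, from 4621425 to 4624425 with 2 exons, had 81.3 and 74.9 CPM after indomethacin, 19.1 and 30.2 CPM after diclofenac, 86.5 and 90.1 CPM in control and 24.7 and 30.7 CPM after aspirin (log2 difference 1.66 ± 0.24, edgeR adjusted p 0.060). In both features the indomethacin libraries lay close to control, and diclofenac and aspirin lay together lower down. The log2 differences of the 7 leading features ran from 1.59 to 1.81.

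Over all 12 tested features of this window, 8 were higher at an unadjusted p under 0.05 (66.7%, against 6.85% of all features), 0 were lower, and the median log2 difference was 1.66. Their CPM values summed to 1282 and 1120 after indomethacin, 351 and 523 after diclofenac, 1415 and 1268 in control, 1073 and 972 after honokiol with indomethacin, and 384 and 510 after aspirin. Per group this was 1201 ± 114 after indomethacin and 437 ± 122 after diclofenac (SD, n = 2 each). The median was 1.35 without the first diclofenac library, which lay lower than the second, and 2.03 without the second. Not all neighbours followed. The feature from 4440982 to 4447715 differed less, at 13.3 and 11.1 against 9.05 and 9.29 CPM (log2 difference 0.41 ± 0.21). That from 4421069 to 4436601 rested on 14 and 33 against 9 and 13 counts (log2 difference 1.27 ± 0.62). Neither had an unadjusted p under 0.05. In a further pair the drugs overlapped. The feature from 4930818 to 4978892, with 9 exons, was at 88.4 and 56.4 CPM after indomethacin and 60.6 and 70.7 CPM after diclofenac (log2 difference 0.14 ± 0.27), and that from 4324211 to 4327679 at 41.3 and 23.8 against 26.9 and 31.1 CPM (log2 difference 0.17 ± 0.30). The spans of some features in this window overlap on the same strand, so they may share reads and are not independent of one another.

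**Figure D3:**
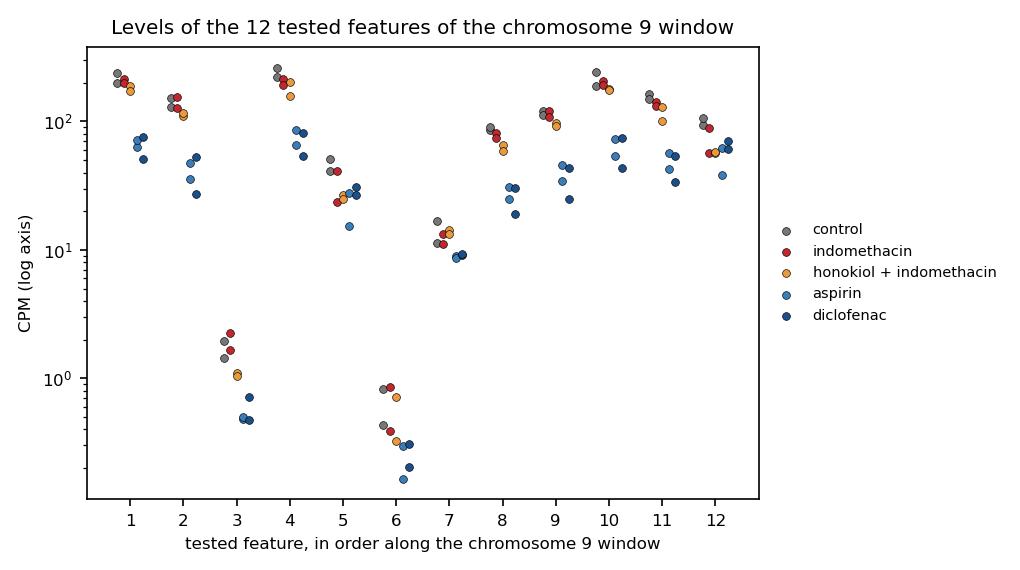
Levels in CPM (log axis) of the 12 tested features of the chromosome 9 window, in order along the chromosome, with 1 point for each of the 10 libraries colored by group. In the 7 leading features the grey, red and orange points (control, indomethacin, honokiol with indomethacin) lie above the blue ones (aspirin, diclofenac).

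The remaining leading higher features were a pair of 1-exon features of 270 nt each on the minus strand of chromosome 12. The feature from 7115820 to 7116089 had 164 and 210 CPM after indomethacin and 34.6 and 38.0 CPM after diclofenac, with 200 and 178 CPM in control and 33.96 and 31.36 CPM after aspirin (log2 difference 2.36 ± 0.38, edgeR adjusted p 0.070). The feature from 7353632 to 7353901 had 180 and 226 CPM after indomethacin and 43.1 and 46.9 CPM after diclofenac (log2 difference 2.18 ± 0.36, edgeR adjusted p 0.070). The pair has the same length and moved alike across the libraries. The 2 honokiol libraries differed here by more than those of any other group, at 88.3 and 232 CPM in the first feature. Whether reads were shared between the 2 features was not tested.

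In the other direction, the leading feature lies on the minus strand of chromosome 1 from 31734327 to 31777070, with 17 exons, 5158 nt and the identifier ENSRNOG00000015159. It had 115 and 98.8 CPM after indomethacin and 408 and 295 CPM after diclofenac. Control was at 20.0 and 20.7 CPM, honokiol with indomethacin at 24.2 and 31.7 CPM, and aspirin at 193 and 253 CPM. All 3 drugs given alone stood above control, diclofenac highest and indomethacin lowest, with no overlap between the groups. The log2 difference between indomethacin and diclofenac was -1.72 ± 0.26 (SE, n = 2 each), with a 95% interval from -2.29 to -1.14 and an edgeR adjusted p of 0.063.

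The next, on the minus strand of chromosome 2 from 113112902 to 113345577 with 25 exons and the identifier ENSRNOG00000024089, had 18.3 and 23.5 CPM after indomethacin and 57.5 and 44.8 CPM after diclofenac. Its control libraries were at 14.3 and 12.7 CPM and its aspirin libraries at 43.4 and 40.5 CPM (log2 difference -1.29 ± 0.21, edgeR adjusted p 0.070). The feature of chromosome 17 from 51898217 to 51912496, with 3 exons, was low in control at 0.411 and 0.134 CPM and reached 2.73 and 2.77 CPM after indomethacin and 11.03 and 10.31 CPM after diclofenac (log2 difference -1.95 ± 0.37, edgeR adjusted p 0.11). With honokiol before indomethacin it was at 0.291 and 0.225 CPM, at the level of control. Aspirin gave 3.31 and 7.10 CPM, nearer to indomethacin than to diclofenac, the 1 exception among the 12 lower features.

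In others of the 12 indomethacin lay near control and diclofenac above both. One, from 15710417 to 16130848 on chromosome 4 with 47 exons, had 3.32 and 4.16 CPM after indomethacin, 7.64 and 8.33 CPM after diclofenac and 4.89 and 4.81 CPM in control (log2 difference -1.09 ± 0.20, edgeR adjusted p 0.11). Another, from 80150211 to 80167033 on chromosome 9 with 7 exons, had 25.2 and 29.0 CPM after indomethacin, 60.1 and 52.7 CPM after diclofenac and 26.6 and 25.4 CPM in control (log2 difference -1.05 ± 0.20, edgeR adjusted p 0.11). In both, aspirin lay with diclofenac, at 8.35 and 8.02 CPM and at 66.9 and 52.2 CPM. The feature from 187162017 to 187181395 on chromosome 2 had 12.7 and 13.1 CPM after indomethacin, above the 4.93 and 8.68 CPM of control, and 29.0 and 28.1 CPM after diclofenac (log2 difference -1.14 ± 0.24, edgeR adjusted p 0.15). The 12 leading lower features had lengths of 1695 to 5866 nt, against 270 to 3580 nt for the leading higher ones, and edgeR adjusted p values from 0.063 to 0.15.

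Features with an unadjusted p under 0.05 in the same direction were looked for in windows of 1 Mb with at least 5 tested features, asking for at least 5 such features and at least 50% of those tested. Of 1213 windows, 6 met this in the higher direction and 0 in the lower. The chromosome 9 window was 1 of the 6, and a pair of neighbouring windows on chromosome 17 made up the largest region. Windows were chosen by p values of this contrast, so no test of them was made.

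The chromosome 17 region, between 43050789 and 44841382, held 54 tested features, most of them short, with a median length of 411 nt. After indomethacin, 34 of them (63.0%, against 6.85% of all features) were higher at an unadjusted p under 0.05, 0 were lower, and the median log2 difference was 0.96. No single feature passed with edgeR, the smallest adjusted p being 0.20, and DESeq2 called 3 higher. The 39 features of 1 exon had a median of 1.14 with 31 higher, and the 15 with more exons had a median of 0.32 with 3 higher. The 1-exon feature from 43814773 to 43815183, on the minus strand, had 4.04 and 4.57 CPM after indomethacin, 1.59 and 2.07 CPM after diclofenac, and 5.05 and 3.81 CPM in control (log2 difference 1.24 ± 0.29). A feature from 44744591 to 44744902, also of 1 exon, had 23.6 and 22.3 CPM after indomethacin and 10.5 and 14.1 CPM after diclofenac (log2 difference 0.90 ± 0.22).

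Summed over the region, CPM came to 479 and 510 after indomethacin, 267 and 325 after diclofenac, 342 and 310 after aspirin, 428 and 444 after honokiol with indomethacin, and 663 and 407 in control. Indomethacin lay within the range of control, and both diclofenac libraries lay below it. Of the 54 features, control was nearer to indomethacin in 49. The count of 34 was 19 without the second indomethacin library, 24 without either diclofenac library and 24 with a term for Y reads. Over the whole table, features of over 350 to 1000 nt had a median log2 difference of 0.19. At an unadjusted p under 0.05, 11.98% of them were higher and 3.48% lower. Features of up to 350 nt had a median of 0.11, with 11.3% higher and 3.73% lower at that p. With each library's trend with length removed, the count in the region was 27. The features are short and may have near-identical copies, and how multiply matching reads were counted is not stated.

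**Figure D4:**
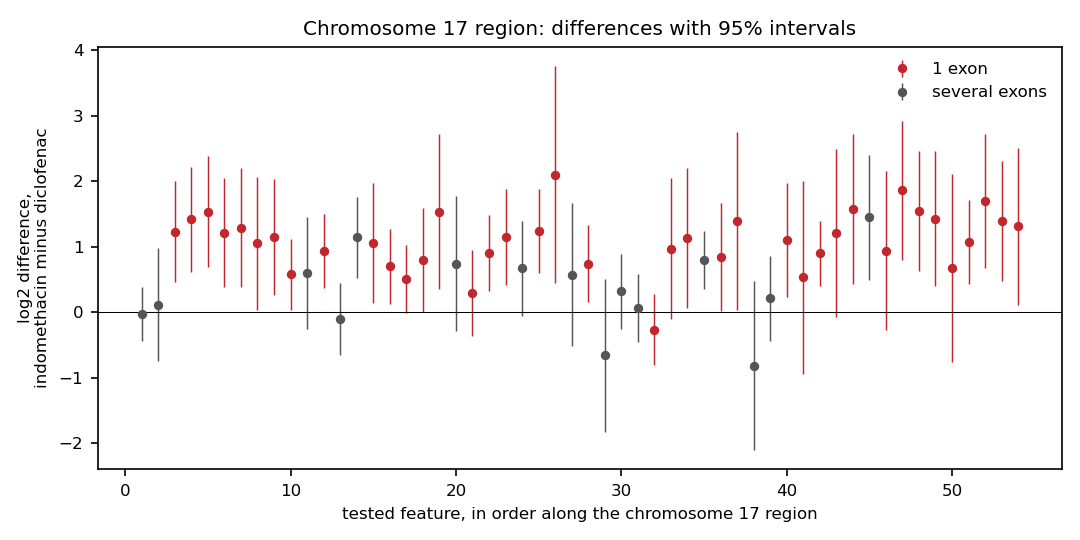
Log2 difference between indomethacin and diclofenac with its 95% interval for each of the 54 tested features of the chromosome 17 region, in order along the chromosome. Features of 1 exon (red, median 1.14) lie mostly above 0, and those with several exons (grey, median 0.32) lie closer to it.

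A set of 3 windows differed from these in that control was low. Their counts of higher features are again at an unadjusted p under 0.05, which 6.85% of all features met. On chromosome 6, the window from 140 to 141 Mb summed to 25.6 and 20.3 CPM after indomethacin, 4.76 and 9.79 CPM after diclofenac and 2.78 and 4.91 CPM in control, with 6 of 10 features higher and a median log2 difference of 1.56. The window from 142 to 143 Mb summed to 19.9 and 21.9 CPM, 3.15 and 8.71 CPM, and 2.05 and 2.37 CPM in the same order, with 5 of 9 features higher and a median of 1.64. The window of chromosome 3 from 16 to 17 Mb summed to 35.3 and 14.6 CPM after indomethacin and 6.13 and 18.4 CPM after diclofenac, so the drugs overlapped there, with 6 of 12 features higher and a median of 1.26. In all 3 windows both aspirin sums lay within the range of diclofenac, and both sums of honokiol with indomethacin lay below those of indomethacin alone. These medians rest on the diclofenac libraries unequally, since without the second library they were 2.18, 2.92 and 2.12, and without the first 1.13, 1.09 and 0.83. Their counts of higher features, 6, 5 and 6, were 4, 2 and 1 without the first diclofenac library and 5, 2 and 2 without the first indomethacin library.

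Single features in these windows varied widely between libraries. The feature of chromosome 6 from 142059736 to 142060032, with 1 exon, had 3.26 and 6.06 CPM after indomethacin, 0.318 and 0.762 CPM after diclofenac and 0.190 and 0.234 CPM in control (log2 difference 3.11 ± 0.52, edgeR adjusted p 0.070). That from 140150433 to 140150729 had 4.60 and 0.796 CPM after indomethacin and 0.0227 and 0.214 CPM after diclofenac, so the 2 indomethacin libraries themselves were far apart (log2 difference 4.48 ± 0.93, edgeR adjusted p 0.15). The neighbouring megabase, from 139 to 140 Mb, went the other way, with 6 of 22 features lower (27.3%, against 5.08% of all features), 0 higher and a median of -1.84. The count of 6 was 0 without the second indomethacin library, 14 without the first, and 2 without the second diclofenac library. There the sums were 44.4 and 14.7 CPM after indomethacin and 43.5 and 119 CPM after diclofenac, which overlapped, and the median was -0.66 without the second diclofenac library and -3.35 without the first indomethacin library.

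Elsewhere, 3 windows held at least 5 features lower after indomethacin at an unadjusted p under 0.05 and 0 higher, none of them reaching 50%. Over all features 5.08% were lower at that p. On chromosome 18, from 30 to 31 Mb, 6 of 39 features (15.4%) were lower and the median was -0.39. The count was 1 without the first indomethacin library or the first diclofenac library. The median was -0.67 without the second indomethacin library. On chromosome 9, from 14 to 15 Mb, 5 of 11 (45.5%) were lower and the median was -0.30. The count was 1 without the second indomethacin library or the second diclofenac library, 2 without the first indomethacin library and 3 without the first diclofenac library. The median ran from -0.54 without the second indomethacin library to -0.18 without the first diclofenac library. Among the 5 was a feature from 14646151 to 14654305 at 0.363 and 0.308 CPM after indomethacin and 0.658 and 1.24 CPM after diclofenac. On chromosome 14, from 46 to 47 Mb, 5 of 19 (26.3%) were lower and the median was -1.32. The count was 1 without the first diclofenac library, 10 without the second, 2 without the first indomethacin library, and 3 without the second indomethacin library or any single control or aspirin library. That window summed to 10200 and 9001 CPM after indomethacin and 72830 and 8101 CPM after diclofenac, and its median was -0.18 without the first diclofenac library. The second diclofenac library thus lay below both indomethacin libraries. Aspirin stood at 60360 and 50020 CPM there and control at 1657 and 1910 CPM.

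The levels of the remaining groups were set beside the differences. Nearness was taken on mean log2(CPM + 0.5). Control was nearer to indomethacin than to diclofenac in 67.9% of all tested features, in 83.7% (937) of the 1119 higher at an unadjusted p under 0.05, and in 89.8% (745) of the 830 lower. Aspirin was nearer to diclofenac in 65.0%, 83.1% and 77.0% of the same sets, and honokiol with indomethacin was nearer to indomethacin in 61.6%, 77.5% and 83.1%. Handling that went with aspirin and diclofenac cannot be told apart from the drugs in these shares. Nor can sex fully, as their Y reads were few or absent. For all 24 leading features control was nearer to indomethacin. Among the called features the one on chromosome 7 was the exception, its control libraries being at the level of diclofenac.

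The contrast of aspirin with control compares no library of either arylacetic acid. It came from the same fit of all 10 libraries, which share the filter, the scaling and the estimate of the spread. The 2 contrasts are therefore not fully independent. Control and aspirin also differed in Y reads, as given above. Handling that went with aspirin and diclofenac cannot be told apart from the drugs in either contrast. In that contrast edgeR called 1553 features higher (9.5%) and 1350 lower (8.26%). Of the features higher with aspirin, 399 (25.7%) were lower after indomethacin than after diclofenac at an unadjusted p under 0.05 and 6 were higher, against 5.08% lower and 6.85% higher of all tested features, with a median log2 difference of -0.44. Of those lower with aspirin, 403 (29.9%) were higher after indomethacin and 2 were lower, with a median of 0.38. Of these 1350, 1249 (92.5%) were above 0, against 50.6% of all tested features. At the median, features higher with aspirin thus stood higher after diclofenac than after indomethacin, and features lower with aspirin stood lower. Leaving out 1 library at a time, the medians ran from -0.60 to -0.32 and from 0.26 to 0.48.

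**Figure D5:**
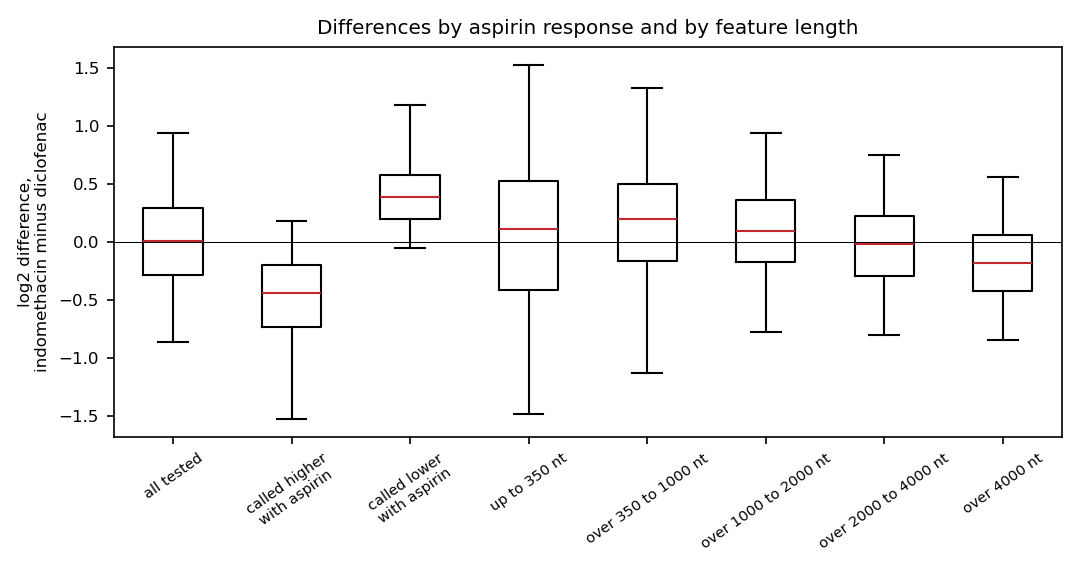
Log2 difference between indomethacin and diclofenac for all tested features, for those called with aspirin against control, and for 5 classes of feature length. Boxes span the quartiles, red lines are medians and whiskers run from the 5th to the 95th percentile, with the medians of the aspirin sets at -0.44 and 0.38.

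The difference also followed feature length. The median log2 difference was 0.11 for features of up to 350 nt, 0.19 from there to 1000 nt, 0.09 from there to 2000 nt, -0.02 from there to 4000 nt and -0.18 above 4000 nt. The share higher at an unadjusted p under 0.05 was 11.98% in the class ending at 1000 nt and 3.09% above 4000 nt, and the share lower was 3.48% and 9.01%. The part of length, RNA quality or library handling in the differences was not tested. With each library's length trend removed, edgeR called the same number of features, 3, and these were the 3 features named above.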

How the data were processed

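The authors deposited raw counts (whole numbers) per gene, in 1 table for each library, made from ribosomal-RNA-depleted, stranded, paired-end total RNA, per the labels' protocols. The tools were HISAT2 2.1.0, featureCounts, cutadapt 1.16 and FastQC 0.11.7, with bcl2fastq, DESeq2 and SAMtools, per the submitters' processing notes. With genome build, strand setting and handling of multiply matching reads not given in the sources used here, overlapping or near-identical features may share reads.

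All 10 libraries entered 1 fit with group as the only term (edgeR 4.0.16 in R 4.3.3, TMM factors, filterByExpr with a minimum count of 10 and a minimum total of 15, robust quasi-likelihood F test, 5 residual degrees of freedom). The contrast was indomethacin minus diclofenac, and calls needed an adjusted p (Benjamini-Hochberg, over 16346 features) under 0.05. A standard error is the size of the log2 difference divided by the square root of F. CPM values are TMM-scaled counts, set to a common library total, computed from the deposited counts. The procedure was checked on simulated data.

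The features named are all those called, and in each direction the 12 with the smallest p whose average log2 CPM was 1 or more and whose drugs did not overlap. That rule also asked for a gene symbol, a condition dropped because 0 identifiers matched, and 53 gene and marker lists could not be applied. Comparisons, lists and rules were chosen with earlier results of these data known. Windows, neighbouring features and aspirin sets were chosen after values were seen. The replicate number was no term of the reported fit, because same-numbered indomethacin and diclofenac libraries did not deviate together (correlation -0.115). Between other groups this correlation ran from -0.263 (diclofenac and honokiol with indomethacin) to 0.298 (control and honokiol with indomethacin). Fits with the replicate number as a block were alternatives. DESeq2 1.42.0 and limma 3.58.1 voom were alternatives.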

Additional observations from a re-analysis of the deposited data

How the results depend on the processing

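The number of called features was 3 and moved to 165 with DESeq2, 5 with limma voom, 872 without a low-count filter and 60 with only the 4 indomethacin and diclofenac libraries. It stayed within 2 to 3 with RLE factors, a stricter filter, robust moderation off, a term for Y reads and the length trend removed. The last was chosen after seeing the data. A stricter filter, robust moderation off and a term for Y reads each kept 2 of the 3 calls. With short, mitochondrial and 3 dominant features left out it was 2, and the chromosome 3 feature was then not tested. The fit with only libraries without Y reads took those with at most 1000 Y counts. It held 1 indomethacin and 2 diclofenac libraries. Leaving out 1 library at a time gave 0 (first diclofenac library) to 63 (second diclofenac library). It gave 7 without the second indomethacin library and 5 without either honokiol library. Of the log2 differences of the 25 named features, 476 alternative values stayed on their side of the threshold, 110 passed it anew, 11 no longer passed and 0 turned direction. The cause of these shifts was not tested. At an unadjusted p under 0.05, the 1119 higher and 830 lower features became 718 and 526 with a term for Y reads, and 695 and 391 with only libraries without Y reads. The chromosome 7 call rests on 7 and 10 counts after diclofenac.

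Nothing in the labels pairs libraries by number. With the replicate number as a block over all libraries 3 features were called, and with the block over the 4 libraries of the 2 drugs 211. The numbers correlated at -0.115, so a crossed pairing was added, and it gave 69.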
